A study of Sus scrofa with 6 samples.

Results

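The ubiquitin-specific proteases (USPs) are the largest family of deubiquitinases, the enzymes that take ubiquitin off proteins. The members described here are all genes of the deposited table whose name starts with USP followed by a digit, which gave 49 of 29861 genes. Of these, 16 had a mean of 1 FPKM or more over the 6 samples and are described one by one, and 33 lay below that level. FPKM is the number of sequenced fragments per kilobase of transcript, scaled to the size of the library, so levels of different genes can be set side by side. One of the 49, USP6NL, is a Rab GTPase-activating protein that only carries the prefix in its name.

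RNA was sequenced from pig oocytes matured in vitro, in 3 groups of 2 samples. Control oocytes were cultured without heat stress, heat-stressed oocytes were cultured under heat stress, and NMN-supplemented oocytes were cultured under heat stress with nicotinamide mononucleotide (NMN), a precursor of NAD+. All samples carry a time of 24 h and the germinal vesicle (GV) stage in their labels, whereas the methods describe pooled metaphase II oocytes for sequencing, so the stage is given by 2 sources that differ. Nothing in the labels says that the 2 samples of a group came from separate ovaries or cultures, so every P-value measures only the spread between these samples.

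Ubiquitin is attached to proteins as a single unit or as chains, and the linkage decides whether a protein is sent to the proteasome, moved between membranes or altered in activity. USPs are cysteine proteases that cut these bonds, many of them with a partner protein that switches them on or brings them to a substrate. A fully grown oocyte is transcriptionally quiet and matures on stored mRNA, and meiosis is driven by timed destruction of ubiquitinated regulators.

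The libraries carried the markers of oocytes. Of 14 oocyte markers, 12 had a mean of 1 FPKM or more, led by BMP15 at 1771 FPKM. Of 13 cumulus and granulosa cell markers in the table, KITLG alone reached 1 FPKM, and AMH, AMHR2 and INHA were listed at 0 in all 6 samples. No blood or immune marker reached 1 FPKM. The summed oocyte markers were 3436 and 3683 FPKM (control), 3350 and 3356 FPKM (heat stress), and 3148 and 2891 FPKM (heat stress with NMN), and 4 of the 12 were lower after heat stress and 6 of 12 in NMN-supplemented oocytes, each against control, beside 10.1% and 15.7% of all tested genes. The summed cumulus markers were at 3.21 and 2.73 FPKM (control), 3.45 and 3.76 FPKM (heat stress) and 4.31 and 4.65 FPKM (heat stress with NMN), which was mostly KITLG, since the rest of the list summed to 0.960 and 0.714, 0.557 and 0.867, and 0.969 and 1.21 FPKM with overlap between control and heat-stressed samples. The part of either marker list in the results was not tested. Mitochondrial transcripts took 66.4% and 61.7% of all FPKM (control), 62.4% and 71.6% (heat stress), and 74.2% and 74.7% (heat stress with NMN). A single gene, LOC100513953, held 13.9% of the FPKM of heat-stressed replicate 1 and was at 0 in the other samples. Because the samples are bulk RNA, fewer cells of a type and less RNA per cell cannot be told apart.

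The USP family as a whole was carried by a few genes. Summed over the 49 members, FPKM was 143 and 130 (control), 148 and 159 (heat stress), and 168 and 172 (heat stress with NMN), and the groups did not overlap. As a share of non-mitochondrial FPKM the same sums were 0.239% and 0.206%, 0.136% and 0.274%, and 0.272% and 0.288%, so that on this scale the groups overlapped and heat-stressed replicate 1 was lowest. USP1 alone supplied 29.0% to 35.7% of that sum, and the 5 highest genes of each sample supplied 68.0% to 73.5%. By mean over the samples, 4 members lay at 10 FPKM or more, 12 between 1 and 10, 23 between 0.1 and 1, and 10 under 0.1. None was at 0 in all samples, and 4 were at 0 in at least 1 sample. The threshold of 1 FPKM falls in a continuous range: USP53 at 1.05 and USP28 at 1.03 lay just inside, and USP36 at 0.911, USP43 at 0.890 and USP37 at 0.808 just outside. USP53, USP28 and USP19 each had at least 1 group with a mean below 1 FPKM, so that they passed through the other groups.

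**Figure D1:**
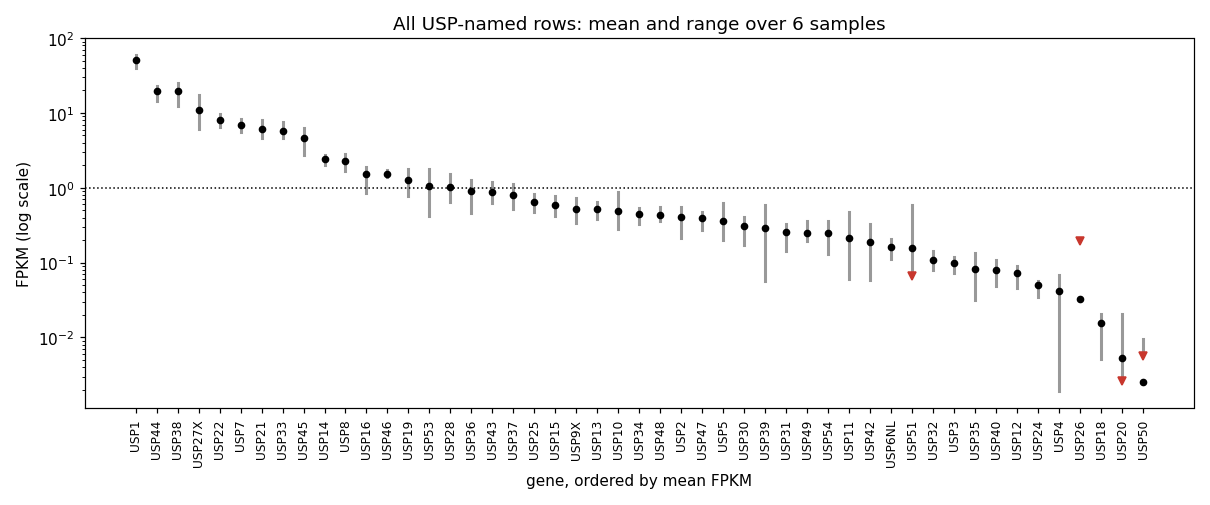
Mean FPKM (black points) and range over the 6 samples (grey lines) of all 49 members on a log scale, with the level of 1 FPKM dotted. Red triangles mark the lowest value above 0 of the 4 genes listed at 0 in at least 1 sample; 16 genes lie on or above the dotted line.

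In the order of levels within a group, USP1 was highest in all 3 groups without overlap with the next gene. Of the 15 pairs of neighbours in the order, the 2 samples of one gene overlapped with those of the next in 6 pairs in control, 9 in heat-stressed and 8 in NMN-supplemented oocytes. In control oocytes USP44, USP27X and USP38 could not be ordered, and the same held for USP8, USP16, USP46 and USP19. In NMN-supplemented oocytes USP38 and USP44 ranked next after USP1, while USP27X had moved down among USP21, USP33, USP7 and USP45.

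**Figure D2:**
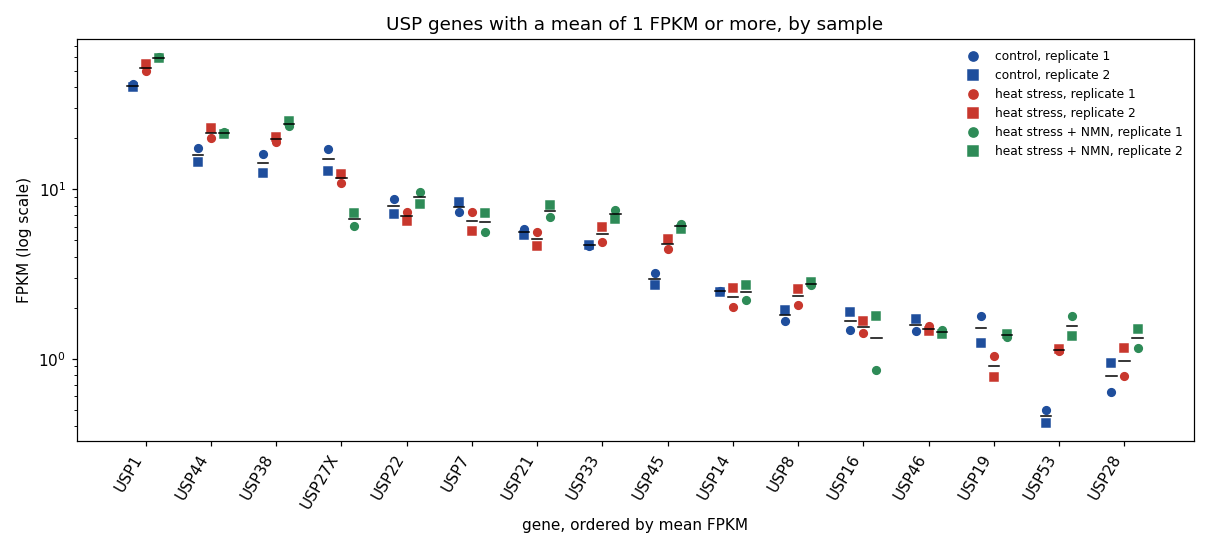
FPKM on a log scale of the 16 genes with a mean of 1 FPKM or more, in 2 control, 2 heat-stressed and 2 NMN-supplemented samples, with group means as black bars. USP1 lies at 40.0 to 59.98 FPKM, above every other gene, and USP27X is the gene whose NMN-supplemented samples lie lowest relative to control.

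Each of the 3 comparisons was tested with limma on log2(FPKM + 1) across the 4713 genes with a mean of 1 FPKM or more, and a gene is said to have passed where its unadjusted P was under 0.05, which is where the 95% confidence interval of its log2 fold change excludes 0. The comparisons share samples, so they are not independent of each other. Differences on this scale understate the change of genes near 1 FPKM, and ratios of mean FPKM are therefore given beside them. For a single gene, an exact permutation test of 2 against 2 samples cannot fall below a two-sided P of 0.333.

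Heat stress against control asks which USP transcripts differ in oocytes matured under heat. USP45, USP53, USP1, USP38 and USP44 were higher in heat-stressed oocytes, by 1.27 to 2.44 times in mean FPKM, and no gene of the 16 was called lower. These 5 of 16 stand beside 22.8% of all tested genes (12.7% higher and 10.1% lower). USP53 is counted although it was among the 16 only through its heated groups. In the median, the log2 fold change was 0.05 over the 16 and 0.05 over all tested genes. No USP gene passed at an adjusted P (Benjamini-Hochberg over all tested genes) under 0.05, and the share among all genes was 0%. The count fell to 2 without heat-stressed replicate 2 and to 3 when NMN-supplemented replicate 1 or replicate 2 was left out, which enter through the shared estimate of the spread. USP1, USP38 and USP44 each lost their call without control replicate 2 or without heat-stressed replicate 2, USP38 also without heat-stressed replicate 1, and USP1 and USP44 without either NMN-supplemented sample, while USP45 and USP53 kept theirs without any 1 sample. Without control replicate 2, 2 of the 16 were higher and 2 lower. The count fell to 0 when samples were scaled to the same sum of non-mitochondrial FPKM, and to 3 (2 higher, 1 lower) when LOC100513953 was left out of that sum.

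NMN-supplemented against heat-stressed oocytes asks what NMN changes under heat. USP27X was lower in NMN-supplemented oocytes, at 0.572 of its level in heat-stressed oocytes, and USP21 and USP33 were higher by 1.46 and 1.30 times. These 3 of 16 stand beside 13.6% of all tested genes, 7.15% higher and 6.45% lower. In the median, the log2 fold change was 0.22 over the 16 and 0.08 over all tested genes. No USP gene passed at an adjusted P under 0.05, again with 0% of all genes. Without NMN-supplemented replicate 2 a single gene, USP27X, passed, USP21 also lost its call without heat-stressed replicate 2, and USP21 alone passed with the same sum of non-mitochondrial FPKM.

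NMN-supplemented against control oocytes gave the largest count of the 3 comparisons. USP45, USP53, USP38, USP1, USP33, USP8, USP44 and USP21 were higher and USP27X was lower, which makes 9 of 16 beside 41.3% of all tested genes, with 25.6% higher and 15.7% lower. The same limit holds for USP53 here. At an adjusted P under 0.05, 6 of 16 passed (5 higher, 1 lower), beside 21.5% of all tested genes. The median log2 fold change was 0.37 over the 16 and 0.11 over all tested genes. Over the 23 members of 0.1 to 1 FPKM it was -0.13, in a separate fit described below. The count was 5 without NMN-supplemented replicate 1, where USP33, USP8, USP44 and USP21 lost their calls, and 3 with the same sum of non-mitochondrial FPKM, or 8 with LOC100513953 left out of that sum. The calls of USP8 and USP21 were also lost without control replicate 1, those of USP44 and USP21 without control replicate 2, and those of all 3 without NMN-supplemented replicate 2.

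**Figure D3:**
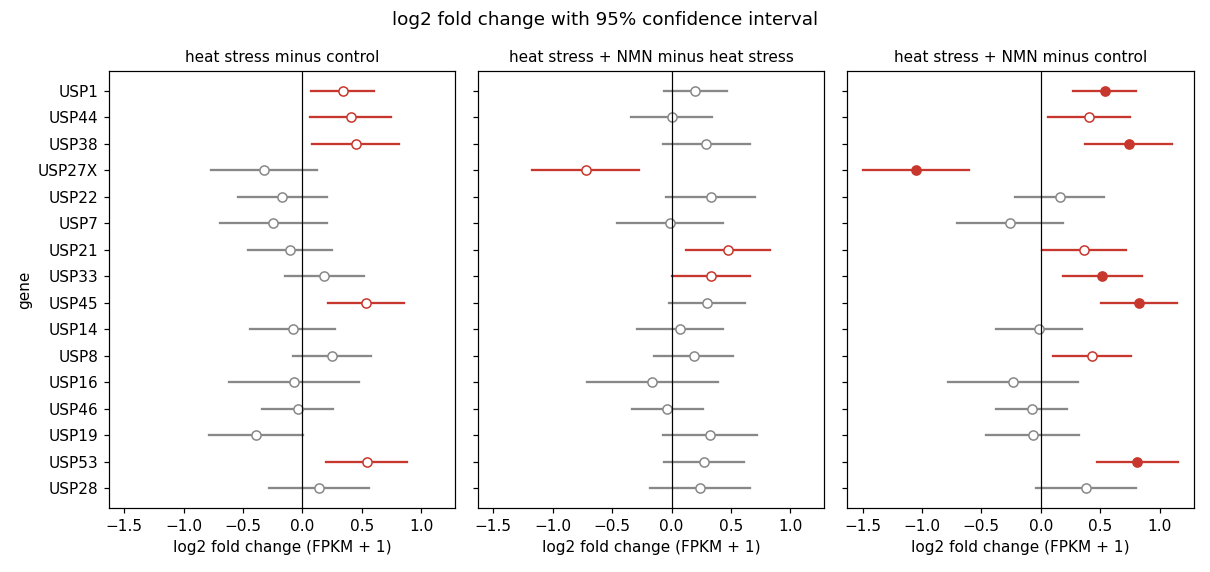
Log2 fold change of FPKM + 1 with 95% confidence interval (limma) for the 16 genes in the 3 comparisons. Red marks an unadjusted P under 0.05 and a filled point an adjusted P under 0.05; filled points occur only against control in NMN-supplemented oocytes, 5 to the right and USP27X to the left.

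Among the genes of chromatin and DNA repair, 8 were tested, of which 2 were higher after heat stress and 3 higher and 1 lower in NMN-supplemented oocytes, each against control, beside 22.8% and 41.3% of all tested genes called in these comparisons. USP1 removes ubiquitin from PCNA and FANCD2 in the repair of damaged DNA, and lies on chromosome 6 at 149971471 to 149985946 of the RefSeq annotation of Sscrofa11.1. Its FPKM was 41.6 and 40.0 (control), 49.4 and 54.4 (heat stress), and 59.98 and 59.4 (heat stress with NMN). The 3 groups did not overlap, with control lowest and NMN-supplemented oocytes highest. The log2 fold change was 0.34 (SE 0.11, 95% interval 0.07 to 0.61, adjusted P = 0.174) for heat stress against control and 0.54 (SE 0.11, adjusted P = 0.0294) for NMN-supplemented against control oocytes. The difference between NMN-supplemented and heat-stressed oocytes was 0.20, with a 95% interval of -0.07 to 0.47. With the same sum of non-mitochondrial FPKM its log2 fold change for heat stress against control turned to -0.02. It was 0.30 with LOC100513953 left out of that sum, and passed under neither scaling.

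USP45 acts with the XPF-ERCC1 nuclease in DNA repair (chromosome 1, 66387616 to 66454806). It was listed at 3.21 and 2.71 FPKM (control), 4.41 and 5.05 (heat stress), and 6.26 and 5.80 (heat stress with NMN). Again the 3 groups were apart and in the same order as for USP1. After heat stress it was higher by 0.53 on the log2 scale (SE 0.13, 95% interval 0.21 to 0.85, adjusted P = 0.130), and the difference between NMN-supplemented and control oocytes was 0.83 (SE 0.13, adjusted P = 0.0219), a 2.03-fold ratio. Its relative USP16, a histone H2A deubiquitinase (chromosome 13, 192376850 to 192406474), had 1.48 and 1.87 FPKM (control), 1.42 and 1.66 (heat stress), and 0.854 and 1.78 (heat stress with NMN). The groups of USP16 overlapped in every comparison, and the 2 NMN-supplemented samples were farther apart than those of any other group of this gene. USP45 was 1.45 to 2.18 times as abundant as USP16 in control samples, 3.10 and 3.04 times in heat-stressed samples, and 7.33 and 3.26 times in NMN-supplemented samples. The ratio of 7.33 goes with the USP16 value of 0.854 FPKM.

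USP27X and USP22 are related proteases that take ubiquitin off histone H2B, USP22 as part of the SAGA coactivator complex. USP27X (chromosome X, 43553454 to 43557247) was at 17.2 and 12.7 FPKM (control), 10.9 and 12.3 (heat stress), and 6.05 and 7.26 (heat stress with NMN). It was the one gene of the 16 that passed as lower: both NMN-supplemented samples lay below all others, and the heat-stressed samples lay below control by a narrow margin. The log2 fold change was -1.05 (SE 0.18, adjusted P = 0.0237) against control and -0.72 (SE 0.18, 95% interval -1.17 to -0.28, adjusted P = 0.268) against heat-stressed oocytes. For heat stress against control it was -0.33, with a 95% interval of -0.77 to 0.12. A copy of 153 bases with at least 95% identity to the USP27X transcript lies elsewhere in the genome, the one such case among the 16 genes, and how reads of that stretch were assigned is not given in the sources used here.

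USP22 (chromosome 12, 61273939 to 61308381) did not move with USP27X. Its FPKM was 8.74 and 7.10 (control), 7.33 and 6.48 (heat stress), and 9.67 and 8.21 (heat stress with NMN). The NMN-supplemented samples lay above the heat-stressed ones and overlapped with control, and no comparison passed (95% interval of the log2 difference -0.05 to 0.70 between NMN-supplemented and heat-stressed oocytes). USP27X was 1.97 and 1.79 times as abundant as USP22 in control samples, 1.49 and 1.90 times in heat-stressed samples, and 0.626 and 0.884 times in NMN-supplemented samples. The order of the pair was thus the opposite in both NMN-supplemented samples. The third relative, USP51, was at 0 in 2 samples and reached 0.596 FPKM at most.

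USP21, another histone H2A deubiquitinase (chromosome 4, 89289056 to 89295232), was listed at 5.79 and 5.34 FPKM (control), 5.62 and 4.59 (heat stress), and 6.89 and 8.06 (heat stress with NMN). Both NMN-supplemented samples were above all others, while control and heat-stressed samples overlapped. The log2 fold change was 0.47 (SE 0.14, 95% interval 0.12 to 0.83, adjusted P = 0.330) against heat-stressed and 0.37 (SE 0.14, 95% interval 0.01 to 0.72, adjusted P = 0.112) against control oocytes. USP7, which stabilises MDM2 and UHRF1 (chromosome 3, 33754357 to 33810480), had 7.28 and 8.37 FPKM (control), 7.29 and 5.68 (heat stress), and 5.55 and 7.28 (heat stress with NMN), and no comparison passed. USP28, a deubiquitinase bound to TP53BP1 that also stabilises MYC (chromosome 9, 41417560 to 41481044), had 0.639 and 0.938 FPKM (control), 0.793 and 1.16 (heat stress), and 1.15 and 1.51 (heat stress with NMN). The NMN-supplemented samples of USP28 lay above control, with a log2 difference of 0.38 and a 95% interval of -0.04 to 0.80 that includes 0.

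USP44 takes ubiquitin off CDC20 and so holds the spindle assembly checkpoint, and was close in level to USP38 (chromosome 5, 87864410 to 87890913). It was at 17.5 and 14.5 FPKM (control), 20.0 and 23.0 (heat stress), and 21.7 and 21.2 (heat stress with NMN). Control was below both other groups, which overlapped each other. The log2 fold change against control was 0.41 in heat-stressed (SE 0.14, 95% interval 0.06 to 0.75, adjusted P = 0.184) and 0.41 in NMN-supplemented oocytes (SE 0.14, 95% interval 0.06 to 0.75, adjusted P = 0.0839), and the difference between these groups had a 95% interval of -0.34 to 0.34. Its relative USP49 lay between 0.194 and 0.359 FPKM. METAP2 overlaps USP44 on the other strand, and whether the libraries were stranded is not given in the sources used here.

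USP38 is known for limiting type I interferon signalling through TBK1 (chromosome 8, 84567476 to 84601044). Its FPKM was 16.0 and 12.5 (control), 18.9 and 20.4 (heat stress), and 23.5 and 25.1 (heat stress with NMN). The 3 groups did not overlap and stood in the same order as for USP1 and USP45. Heat stress against control gave 0.45 on the log2 scale (SE 0.15, 95% interval 0.08 to 0.81, adjusted P = 0.183), and NMN-supplemented against control oocytes gave 0.74 (SE 0.15, adjusted P = 0.0294).

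The members that act at endosomes and membrane receptors were USP33, USP8 and USP46. USP33 recycles receptors such as the beta-2 adrenergic receptor (chromosome 6, 135524372 to 135589742). It had 4.61 and 4.70 FPKM (control), 4.90 and 5.998 (heat stress), and 7.49 and 6.70 (heat stress with NMN). The groups did not overlap, and the difference was 0.52 on the log2 scale between NMN-supplemented and control oocytes (SE 0.13, adjusted P = 0.0473) and 0.33 between NMN-supplemented and heat-stressed oocytes (SE 0.13, 95% interval 0.0004 to 0.66, adjusted P = 0.360). This last call was lost under 13 of 17 alternative settings. Its relative USP20 did not exceed 0.0208 FPKM.

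USP8 deubiquitinates receptors on endosomes together with the STAM proteins (chromosome 1, 121306031 to 121376154). Its FPKM was 1.67 and 1.93 (control), 2.07 and 2.58 (heat stress), and 2.72 and 2.82 (heat stress with NMN), with no overlap between groups. NMN-supplemented against control oocytes differed by 0.43 on the log2 scale (SE 0.13, 95% interval 0.10 to 0.76, adjusted P = 0.0686). USP46, which works with WDR48 and WDR20 (chromosome 8, 39518155 to 39581990), was at 1.45 and 1.70 FPKM (control), 1.56 and 1.45 (heat stress), and 1.48 and 1.40 (heat stress with NMN), and its groups overlapped in all comparisons. Against control, the 95% interval of its log2 difference was -0.34 to 0.26 after heat stress and -0.38 to 0.22 in NMN-supplemented oocytes. USP46 was 16.1 to 33.6 times as abundant as its close relative USP12. USP50 overlaps USP8 and LOC110262086 overlaps USP46 on the other strand.

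USP14 and USP19 serve ubiquitin recycling and protein quality control. USP14 sits on the proteasome and trims ubiquitin from its substrates (chromosome 6, 106087921 to 106139717). It was listed at 2.49 and 2.49 FPKM (control), 2.01 and 2.60 (heat stress), and 2.22 and 2.71 (heat stress with NMN), and the groups overlapped in all comparisons. USP19, whose membrane form acts at the endoplasmic reticulum (chromosome 13, 31726668 to 31738135), had 1.78 and 1.23 FPKM (control), 1.03 and 0.777 (heat stress), and 1.35 and 1.40 (heat stress with NMN). Both heat-stressed samples were below the others, with -0.39 on the log2 scale against control (SE 0.16, adjusted P = 0.221) and 0.32 for NMN-supplemented against heat-stressed oocytes (SE 0.16, adjusted P = 0.390), neither of which passed.

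USP53, a protein of tight junctions (chromosome 8, 104500204 to 104560711), had the largest ratio of the 16. With a control mean of 0.458 FPKM, it was among the 16 only through its heated groups. Its difference from control is therefore not independent of how it was chosen. It was at 0.499 and 0.417 FPKM (control), 1.11 and 1.13 (heat stress), and 1.78 and 1.36 (heat stress with NMN). The 3 groups did not overlap, with control lowest. The ratio was 2.44 for heat stress against control (log2 fold change 0.54, SE 0.14, 95% interval 0.20 to 0.88, adjusted P = 0.137) and 3.43 for NMN-supplemented against control oocytes (0.81, SE 0.14, adjusted P = 0.0237). LOC100626577 overlaps USP53 on the same strand and was listed at 0.

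Of the 33 members below 1 FPKM, 23 had a mean of at least 0.1 FPKM and were tested in a fit with a pseudocount of 0.1 FPKM, and 10 were not tested. After heat stress 2 of the 23 were lower and 0 higher, beside 10.2% of all genes of 0.1 to 1 FPKM called and 7.03% called lower. In NMN-supplemented against heat-stressed oocytes 2 were lower, beside 8.85% called and 6.76% called lower. In NMN-supplemented against control oocytes 2 were higher and 7 lower, beside 18.6% called and 13.7% called lower. None passed at an adjusted P under 0.05. The members below 1 FPKM named from here on were chosen after their values were seen, other than USP36, USP43 and USP37. Counted above as lower are USP11 and USP42, although they reached 0.1 FPKM only through groups where they were higher.

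USP11, which binds BRCA2, fell furthest among them. It was at 0.476 and 0.474 FPKM (control), 0.0632 and 0.124 (heat stress), and 0.0598 and 0.0754 (heat stress with NMN). All 4 heated samples lay far below control, and the log2 fold change was -1.59 after heat stress (SE 0.28, adjusted P = 0.188) and -1.78 in NMN-supplemented oocytes (SE 0.28, adjusted P = 0.0519). The means of USP11 were 0.475 FPKM (control), 0.0938 (heat stress) and 0.0676 (heat stress with NMN), so it reached the minimum of 0.1 FPKM only through control. Its difference from control is therefore not independent of how it was chosen. USP5, which takes apart free ubiquitin chains, had 0.584 and 0.617 FPKM (control), 0.257 and 0.198 (heat stress), and 0.286 and 0.222 (heat stress with NMN). It too was lower in all 4 heated samples (log2 fold change -1.10 after heat stress, SE 0.23, adjusted P = 0.204, and -0.99 in NMN-supplemented oocytes, SE 0.23, adjusted P = 0.0751). Its relative USP13 lay between 0.377 and 0.654 FPKM and did not pass.

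USP36, a nucleolar deubiquitinase, was at 1.28 and 1.19 FPKM (control), 0.963 and 0.870 (heat stress), and 0.697 and 0.466 (heat stress with NMN). The groups were apart in falling order, and NMN-supplemented oocytes were lower than control (log2 fold change -0.99, SE 0.22, adjusted P = 0.0745) and than heat-stressed oocytes (-0.60, SE 0.22, adjusted P = 0.446). USP42 had 0.239 and 0.329 FPKM (control), 0.245 and 0.186 (heat stress), and 0.0812 and 0.0589 (heat stress with NMN), so that its drop stood in NMN-supplemented oocytes (-1.17 against control, SE 0.28, adjusted P = 0.0811). With a mean of 0.0701 FPKM in NMN-supplemented oocytes, USP42 reached the minimum of 0.1 FPKM through the other groups. USP39, a splicing factor without protease activity, USP9X and USP10, a partner of G3BP1, were lower in NMN-supplemented than in control oocytes at 0.200, 0.551 and 0.479 of the control level. USP25 and USP15 were higher, by 1.69 and 1.68 times. USP43 (0.632 to 1.18 FPKM over the 6 samples) and USP37, which stabilises cyclin A (0.515 to 1.13 FPKM), did not pass.

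**Figure D4:**
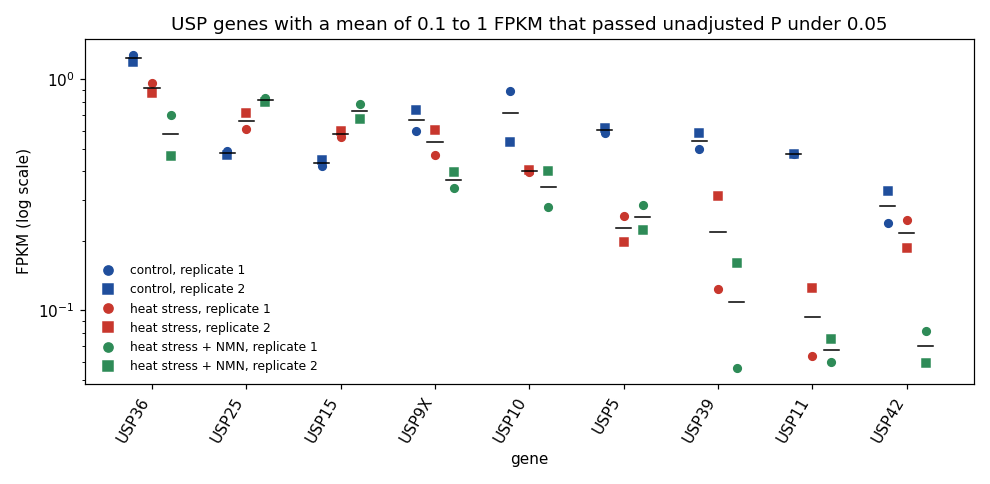
FPKM on a log scale of the 9 genes with a mean of 0.1 to 1 FPKM that passed an unadjusted P under 0.05 in at least 1 comparison, with group means as black bars. USP11 and USP5 lie lower in all 4 heated samples than in both control samples, and USP25 and USP15 lie higher.

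USP1, USP12 and USP46 need WDR repeat proteins for activity, and USP8 works with the STAM proteins. Of 20 listed partners of USPs, 7 were tested, and 1 was higher and 1 lower after heat stress, 2 were higher in NMN-supplemented than in heat-stressed oocytes, and 3 were higher and 1 lower in NMN-supplemented than in control oocytes, beside 22.8%, 13.6% and 41.3% of all tested genes called. WDR48, the activator of USP1, USP12 and USP46, was at 5.16 and 6.15 FPKM (control), 5.998 and 6.67 (heat stress), and 8.82 and 8.77 (heat stress with NMN). Both NMN-supplemented samples lay above the rest (log2 fold change 0.56 against control, SE 0.13, adjusted P = 0.0361, and 0.42 against heat-stressed oocytes, SE 0.13, adjusted P = 0.336), and control and heat-stressed samples overlapped. WDR20 had 14.7 and 13.4, 15.4 and 15.5, and 19.5 and 18.8 FPKM in the 3 groups, which did not overlap, and NMN-supplemented oocytes were above control by 0.42 on the log2 scale (SE 0.11, adjusted P = 0.0469). DMWD, a WDR20 relative that also binds the USP12 and USP46 complexes, fell from 9.25 and 7.61 FPKM (control) to 5.15 and 3.45 (heat stress) and 3.28 and 3.53 (heat stress with NMN) (log2 fold change -0.84 after heat stress, SE 0.19, adjusted P = 0.127). STAM2 was at 2.37 and 1.79, 2.79 and 3.04, and 3.97 and 3.57 FPKM, and was higher in NMN-supplemented than in control oocytes by 0.64 (SE 0.14, adjusted P = 0.0347).

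**Figure D5:**
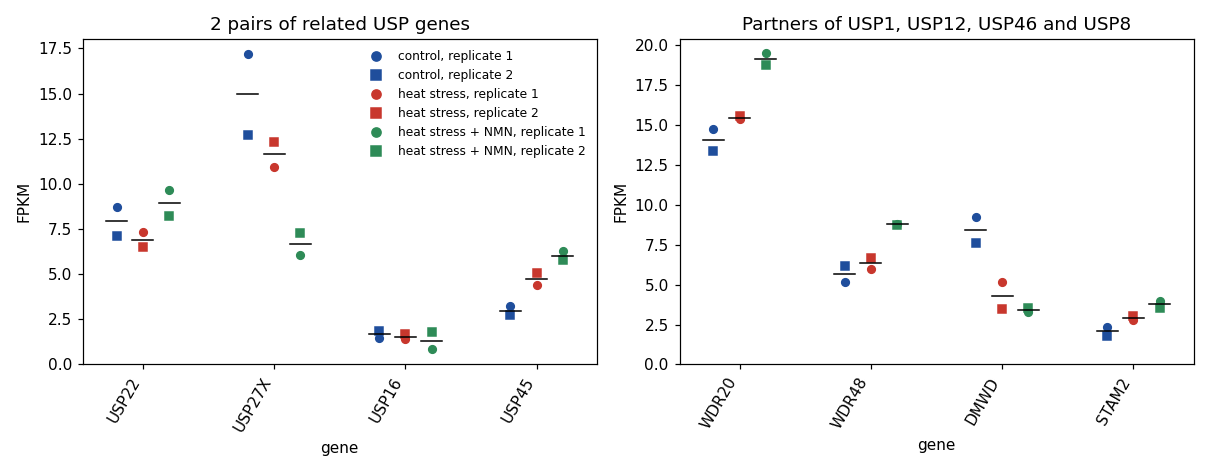
FPKM on a linear scale of 4 related USP genes (left) and of 4 partner genes (right) in each sample, with group means as black bars. USP27X lies above USP22 in control and heat-stressed samples and below it in NMN-supplemented samples, and WDR48 and WDR20 are highest in NMN-supplemented samples while DMWD is highest in control.

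The other deubiquitinases, with 3 USP relatives that carry no number in their name (CYLD, PAN2 and USPL1), were read in the same fit. Of 44 listed, 38 were in the table and 17 were tested, and 2 were higher (YOD1, MYSM1) and 2 lower (OTUB1, JOSD1) after heat stress, 1 was higher in NMN-supplemented than in heat-stressed oocytes, and 7 were higher and 3 lower in NMN-supplemented than in control oocytes, beside 22.8%, 13.6% and 41.3% of all tested genes called. Their median log2 fold change in that last comparison was 0.00, beside 0.37 over the 16 USP genes and 0.11 over all tested genes. In the fit with a minimum and pseudocount of 0.1 FPKM, the median over the 23 USP members of 0.1 to 1 FPKM was -0.13, beside -0.03 over all genes of that fit. MYSM1, a histone H2A deubiquitinase of the JAMM family, was at 3.84 and 4.14 FPKM (control), 5.35 and 6.05 (heat stress), and 8.02 and 7.60 (heat stress with NMN), and passed as higher in all 3 comparisons (0.82 against control in NMN-supplemented oocytes, SE 0.12, adjusted P = 0.0210). Of the OTU family, YOD1, a partner of the p97 ATPase, was higher in NMN-supplemented than in control oocytes by 1.07 (adjusted P = 0.0238), OTUD3 by 0.85 (adjusted P = 0.0470) and OTUD1 by 0.85 (adjusted P = 0.0768), while OTUB1 was lower at -1.55 (adjusted P = 0.0294), all on the log2 scale. JOSD1 was lower by -0.57 (adjusted P = 0.0349), BAP1, a nuclear deubiquitinase, by -0.52 (adjusted P = 0.0910), and ZUFSP, a protease of long ubiquitin chains, was higher by 0.35 (adjusted P = 0.0837). ZUFSP had a control mean of 0.833 FPKM and BAP1 a mean of 0.947 FPKM in NMN-supplemented oocytes, so each reached the minimum of 1 FPKM through the other groups. Their differences from control are therefore not independent of how they were chosen. UCHL1, abundant in oocytes, had 25.9 and 37.4, 28.2 and 22.2, and 26.4 and 23.7 FPKM in the 3 groups and did not pass.

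Genes of ubiquitin and its activation were read beside the proteases. UBB, a gene of ubiquitin repeats, lay at 986 to 1681 FPKM and did not pass in any comparison. The locus deposited for UBB is the one also given for USP43, so how reads were divided between them is not known. RPS27A, which encodes ubiquitin fused to a ribosomal protein, ranged from 0.659 to 3.02 FPKM with overlapping groups. UBA1, the main ubiquitin-activating enzyme, was lower after heat stress by -0.53 (SE 0.17, adjusted P = 0.179), and of 8 listed genes of this set 5 were tested. The mean of UBA1 in heat-stressed oocytes was 0.851 FPKM, so it reached the minimum of 1 FPKM through the other groups.

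The ends of the transcripts were read because stored oocyte mRNA is polyadenylated through a hexamer (AATAAA or ATTAAA) and, for mRNAs switched on in meiosis, through a cytoplasmic polyadenylation element (TTTTAT or TTTTAAT). Windows of 30 bases around the hexamer nearest the end of the longest RefSeq model (Sscrofa11.1, annotation release 106) are shown 5′ to 3′ on the gene's own strand. That hexamer and the element are in capitals (a match to one may overlap the other). Any further hexamer, such as the AATAAA in the USP45 window, is in lower case. Shown are 4 genes that passed in a comparison and 2 that did not and hold the element beside the hexamer.
USP45 (chr1:66387616-66387645, minus strand): ctgtataaatatgtataataaatATTAAAt
USP27X (chrX:43557158-43557187, plus strand): ttattgttaaagATTAAAtgatataaaatg
USP21 (chr4:89289061-89289090, minus strand): cacttttttgtgAATAAAtttattaagaaa
USP33 (chr6:135589705-135589734, plus strand): taaaattagttcAATAAAaatgatttaaaa
USP14 (chr6:106087922-106087951, minus strand): cacagTTTTAATAATAAAaaaaagaagcta
USP22 (chr12:61273947-61273976, minus strand): ttcctctgttacAATAAAgctacaTTTTAT

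A hexamer lay in the last 100 bases of 13 of the 16 genes (81.2%), against 80.4% of the 4091 tested genes with a model, and none was found there in USP44, USP53 or USP8. The element lay in 4 of 16 (25.0%), USP14, USP22, USP28 and USP45, against 24.8% of tested genes. Both shares were thus close to those of all tested genes. The hexamer nearest the end was ATTAAA in USP1, USP16, USP27X, USP38 and USP45, which is 5 of 16 genes (31.2%) against 15.3% of tested genes. Of these, USP1 and USP45 each held 2 hexamers in the last 100 bases, and the one farther from the end in USP45 was AATAAA. In NMN-supplemented against control oocytes 4 of these 5 genes passed, 2 of the 8 genes with AATAAA, and all 3 genes without a hexamer there. Over all tested genes with a model, 43.5% passed for each of the 2 hexamers and 40.7% of those without a hexamer there. The counts among the USP genes were noticed after their values were seen. A match describes the letters of the annotated model and does not show that a site is used.

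The 250 bases before the annotated start of the gene were searched on both strands for a pair of heat shock element units, spelled GAANNTTC or TTCNNGAA. None of the 16 genes held it, against 10.5% of the tested genes, and of 32 members below 1 FPKM with a model it was found in USP5 and USP36 (6.25%). No match says only that these letters are not in this window. The windows of USP1, which was higher in both heated groups, and of USP27X, which was lower in NMN-supplemented oocytes, are shown 5′ to 3′ without capitals, since neither holds the motif. That of USP1 had a GC content of 52.0% and 15 CpG dinucleotides, and that of USP27X 69.2% and 7.
USP1 (chr6:149985947-149986196, minus strand): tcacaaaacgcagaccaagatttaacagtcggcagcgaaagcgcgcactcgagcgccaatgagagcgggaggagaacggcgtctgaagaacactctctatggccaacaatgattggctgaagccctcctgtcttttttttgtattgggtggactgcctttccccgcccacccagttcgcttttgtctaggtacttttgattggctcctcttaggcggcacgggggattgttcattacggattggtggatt
USP27X (chrX:43553204-43553453, plus strand): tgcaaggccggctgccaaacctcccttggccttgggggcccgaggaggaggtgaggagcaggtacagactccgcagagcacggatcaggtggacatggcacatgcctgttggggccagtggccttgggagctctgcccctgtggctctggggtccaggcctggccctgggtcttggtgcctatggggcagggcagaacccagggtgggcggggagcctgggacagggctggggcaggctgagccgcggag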

How the data were processed

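Pig oocytes of 3 groups (control, heat stress, and heat stress with NMN) were sequenced, 2 samples in each, and grouped by their labels. Per the methods and the submitters' processing notes, the authors trimmed the reads, aligned them to the pig genome (susScr11) with tophat2 and made FPKM values, with Cufflinks 2.2.1, Cuffnorm and Cuffdiff named in the notes. The deposited FPKM of 29861 genes and 6 samples were used. The deposited columns of the authors' own comparisons (fold changes, P-values and group FPKM) were not used. Read counts were not used here, so depth is unknown and no counting interval is given.

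FPKM were transformed as log2(FPKM + 1), genes with a mean of 1 FPKM or more (4713) were kept, and the group means were estimated together from the 6 samples by limma 3.58.1, run in R 4.3.3 (empirical Bayes with a variance trend, two-sided), with Benjamini-Hochberg adjustment over all tested genes. The groups share 1 estimate of the spread, since 2 samples alone give little information on it. Members of 0.1 to 1 FPKM were read in a fit with a minimum and a pseudocount of 0.1 FPKM, chosen after seeing the data. The pipeline was tested on simulated data. Transcript ends, start sites and overlaps came from RefSeq annotation release 106 of Sscrofa11.1, in which 48 of 49 members had a model (USP42 had none). Coordinates are RefSeq's.

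Named genes were all members with a mean of 1 FPKM or more, the 3 nearest below, up to 4 genes of lowest P (if under 0.05) from each list of other deubiquitinases, partners and ubiquitin genes, and the ubiquitin genes, WDR48 and UCHL1 whatever their values; some of these items are not reported here. Members below 1 FPKM that passed were also named, after their values were seen. Members and lists were chosen with earlier results of these data known. The alternatives tried were the pseudocount, the filter, the scaling, a replicate block, the samples in the fit, the variance trend, and leaving out each sample.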

Additional observations from a re-analysis of the deposited data

How the results depend on the processing

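In heat stress against control, where 5 USP genes passed, the count was 9 with a minimum mean of 0.1 FPKM, 10 without a filter, 8 with a minimum and pseudocount of 0.1 FPKM, 3 with only the compared groups in the fit, 0 with the same sum of non-mitochondrial FPKM, 3 with LOC100513953 left out of that sum, and 0 at an adjusted P under 0.05. In NMN-supplemented against heat-stressed oocytes, where 3 passed, it was 1 with the same sum of non-mitochondrial FPKM and 0 at an adjusted P under 0.05. In NMN-supplemented against control oocytes, where 9 passed, it was 18 with a minimum mean of 0.1 FPKM, 18 without a filter, 18 with a minimum and pseudocount of 0.1 FPKM, and 3 with the same sum of non-mitochondrial FPKM. The lower filters test more members, 39 or 49 in place of 16. Leaving out 1 sample gave 2 to 5, 1 to 3 and 5 to 9 genes in the 3 comparisons, with the lowest counts without heat-stressed replicate 2, NMN-supplemented replicate 2 and NMN-supplemented replicate 1. Scaling to the non-mitochondrial sum moved the median change over all tested genes (log2) to -0.22, 0.35 and 0.13, and turned USP1 in heat stress against control to -0.024. With LOC100513953 left out of that sum, these medians were 0.02, 0.12 and 0.12. USP1 was then at 0.30 and did not pass. The cause of these shifts was not tested. The fit with LOC100513953 left out and the fit with both a minimum and a pseudocount of 0.1 FPKM were chosen after seeing the data.

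Of the 17 fold changes that passed, those of USP45, USP53 and USP27X in NMN-supplemented against control oocytes passed under all 17 alternative settings. This holds for the unadjusted P only. Their adjusted P (limma) was 0.0505, 0.0505 and 0.0541 with a minimum mean of 0.1 FPKM. With the same sum of non-mitochondrial FPKM it was 0.219, 0.0841 and 0.137. It stayed under 0.05 with the pseudocount of 0.1 FPKM alone, the replicate block, or only the compared groups in the fit. USP53 reached the minimum of 1 FPKM only through its heated groups. With the replicate number as a block, the counts were 5, 3 and 9, and 2 of the 17 were lost (USP33 against heat-stressed and USP21 against control oocytes). Same-numbered samples of different groups did not deviate together (correlations of -0.032, -0.014 and 0.0080). With 2 samples per group this cannot tell whether same-numbered samples were collected or cultured together. FPKM without counts leave the precision of single values unknown, which bears most on members below 1 FPKM.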
